A study of Mus musculus with 7 samples.

Results

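Hox genes of paralog groups 4 to 13 were followed across 7 ATAC-seq libraries from sorted mouse embryonic heart progenitors. ATAC-seq reads out open chromatin through the sites at which the Tn5 transposase can insert. The members were defined by gene symbol, as every Hoxa, Hoxb, Hoxc and Hoxd gene numbered 4 to 13, which gave 31 of the 26180 genes with a promoter window. They comprised 8 genes of the Hoxa cluster, 7 of Hoxb, 9 of Hoxc and 7 of Hoxd. All cells came from the second heart field region of E9.5 embryos. GFP+ cells (2 libraries, replicates 3 and 4) carried the Hoxb1GFP allele, which labels posterior second heart field progenitors and is itself a Hoxb1 null reporter placed inside the Hoxb cluster. Tomato+ cells (2 libraries, replicates 6 and 8) came from Mef2c-Cre;RosatdT embryos, in which the anterior heart field enhancer of Mef2c drives Cre and so marks the anterior second heart field and its progeny. GFP- cells (2 libraries, replicates 1 and 2) and Tomato- cells (1 library, replicate 7) were the reporter-negative cells of the same dissected regions. Embryos were pooled before sorting and 10000 cells were used per sample. The sorted population and the mouse line cannot be told apart in a comparison of GFP+ with Tomato+ cells.

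Hox genes encode homeodomain transcription factors and lie in 4 clusters, ordered so that the low-numbered genes at the 3′ end are expressed earlier and more anteriorly than the high-numbered genes at the 5′ end. The earliest groups act in the hindbrain and in the posterior second heart field, where retinoic acid signalling sets their expression border. The middle groups pattern the cervical and thoracic trunk, and the last groups pattern the lumbosacral and tail regions, the limbs and the urogenital tract. In cells where they are silent, Hox clusters are classic targets of Polycomb repression.

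In these cells few members had a strong promoter peak in every library, and the peaks they had were low. A promoter window ran from 1000 bp upstream to 100 bp downstream of a RefSeq transcription start site (TSS), and a peak was called strong when its −log10 q was at least 2, which is a q of 0.01. Only Hoxa4, Hoxc10, Hoxd8 and Hoxd13 had a strong promoter peak in all 7 libraries, which is 12.9% of the members against 46.2% of all genes. Hoxa6, Hoxa7, Hoxb6, Hoxb7, Hoxb8, Hoxc5, Hoxc6 and Hoxc12 had no promoter peak of any strength in any library. These 8 genes made up 25.8% of the members, while 21.4% of all genes and 18.2% of coding genes had none.

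The promoters of 4 members show the range of sequence behind this contrast. Each line holds the 250 bases before and the 50 bases from the TSS, 5′ to 3′ on the coding strand, in GRCm38.p6. Those of Hoxd13, Hoxa7 and Hoxb8 come from the RefSeq promoter table, in which 17 of the 31 members were found, and that of Hoxd8 was read from the genome at the second of its 2 RefSeq start sites. Hoxd13 (chr2:74667975-74668274, plus strand) had a strong peak over this stretch in all 7 libraries, and Hoxd8 (chr2:74705239-74705538, plus strand) in 5 of the 7, the others lying beside it. Hoxa7 (chr6:52218524-52218823, minus strand) and Hoxb8 (chr11:96281655-96281954, plus strand) had no promoter peak. Capitals in Hoxb8 mark matches to TTTATNG, the letters searched for CDX factors, and to TGATNNAT, those searched for PBX-HOX dimers, on either strand.
Hoxd13 promoter: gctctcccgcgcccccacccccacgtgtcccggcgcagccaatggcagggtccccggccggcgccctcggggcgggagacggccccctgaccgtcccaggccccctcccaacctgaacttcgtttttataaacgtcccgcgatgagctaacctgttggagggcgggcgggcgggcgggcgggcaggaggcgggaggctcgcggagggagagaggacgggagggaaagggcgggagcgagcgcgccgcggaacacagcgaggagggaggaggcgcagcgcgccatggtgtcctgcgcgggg
Hoxd8 promoter: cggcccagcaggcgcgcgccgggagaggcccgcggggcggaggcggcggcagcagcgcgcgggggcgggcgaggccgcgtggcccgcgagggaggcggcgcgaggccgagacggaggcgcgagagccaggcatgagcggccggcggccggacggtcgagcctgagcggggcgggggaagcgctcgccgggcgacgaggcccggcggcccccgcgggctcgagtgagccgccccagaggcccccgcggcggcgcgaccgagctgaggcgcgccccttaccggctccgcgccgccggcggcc
Hoxa7 promoter: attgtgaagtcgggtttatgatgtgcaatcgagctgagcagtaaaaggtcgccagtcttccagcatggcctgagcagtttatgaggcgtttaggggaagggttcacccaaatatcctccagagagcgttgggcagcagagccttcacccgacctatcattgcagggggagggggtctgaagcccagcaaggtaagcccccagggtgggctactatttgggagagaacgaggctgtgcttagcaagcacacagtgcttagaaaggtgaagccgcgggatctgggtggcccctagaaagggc
Hoxb8 promoter: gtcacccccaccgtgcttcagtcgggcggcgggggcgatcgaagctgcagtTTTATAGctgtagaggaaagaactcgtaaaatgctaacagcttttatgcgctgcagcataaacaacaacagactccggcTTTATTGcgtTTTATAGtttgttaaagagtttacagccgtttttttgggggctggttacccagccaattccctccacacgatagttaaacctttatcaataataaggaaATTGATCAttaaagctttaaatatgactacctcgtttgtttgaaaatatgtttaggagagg
The Hoxd13 stretch held 37 CpG dinucleotides at 74.3% G and C, and the Hoxd8 stretch 59 at 85.0%, while the Hoxa7 stretch held 9 at 55.7% and the Hoxb8 stretch 13 at 42.3%. The stretch at the first Hoxd8 start site held 6 CpG at 46.7%, and that of Hoxa6, which had no promoter peak, 26 at 62.0%. Merged over libraries, the strong Hoxd8 peaks ran from position 74704611 to 74705965. They reached only the end of the first stretch, at position 74704664. The part of CpG density in the peaks was not tested.

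The deposited peak lists held 187914 to 291287 peaks per library, of which 64306 to 77746 were strong. Sequencing depth was estimated from the lowest background value of each list as 52340120 tags (Tomato+ replicate 6) to 93074895 tags (Tomato- replicate 7). Markers of the second heart field had strong promoter peaks for 6 to 8 of 10 genes in every library, the reporter-negative ones included. Of the markers of other cell types, neural genes reached 3 to 8 of 8, limb and tail bud genes 1 to 3 of 5, somite genes 2 to 4 of 6, neural crest genes 1 to 3 of 5, endothelial genes 1 to 3 of 5, blood genes 0 to 4 of 6 and endoderm genes 0 to 2 of 4. The highest neural, blood and endothelial counts were all in the Tomato- library, which also had the most tags and the most strong peaks. An open promoter is not expression, and the part of these cell types in the Hox values was not tested. In sorted populations, fewer cells with an open site and a site less open in every cell cannot be told apart.

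Between 16 and 19 of the 31 members had a promoter peak of any strength in a given library, and 5 (GFP+ replicate 3) to 15 (Tomato+ replicate 8) had a strong one. That is 16.1% to 48.4% of the members, below the 53.8% to 56.7% of all genes in every library. Of the 217 pairs of a member and a library, 123 had a promoter peak and 69 a strong one. Where there was a peak it was low, with a summit pileup (the number of overlapping extended tags) of 7 to 36 and a fold enrichment of 1.9 to 5.33 over the local background. Divided by the library's depth to give a normalised pileup, in tags per 1000000 tags, the median summit of the members was 0.184 to 0.231 against 0.355 to 0.439 for all genes with a promoter peak. No member passed the median of all genes in any library, and the highest, Hoxb4 in the Tomato- library, stood at percentile 47.5. Low medians were not particular to the members. They were 0.195 to 0.322 for Hox genes of groups 1 to 3 and 0.197 to 0.325 for second heart field markers, below that of all genes in every library.

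**Figure D1:**
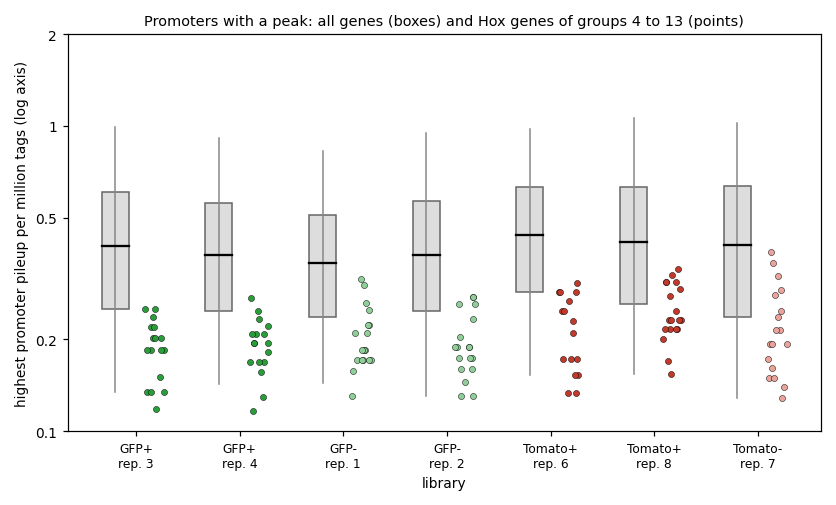
Normalised summit pileup of promoter peaks, in tags per 1000000 tags on a log axis, in each of the 7 libraries. Boxes span the 25th to 75th percentile of all genes with a promoter peak, with a line at the median and whiskers from the 5th to the 95th percentile, and points are members, all of which lie under the line.

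The gap was also present among CpG-rich promoters. By the usual criteria of at least 50% G and C and a CpG observed over expected ratio of at least 0.6, 11 members had a CpG-rich promoter window. Of these, Hoxa4, Hoxd8 and Hoxd13 had a strong peak in all 7 libraries (27.3%), and Hoxb7 had no peak in any. Among the 5811 CpG-rich coding genes, 90.9% had a strong peak in all 7 libraries and only 3 genes (0.0516%) had none. The median summit pileup was 11 to 22 tags per library for the CpG-rich members and 30 to 53 for all CpG-rich coding genes. This comparison group was chosen after the data were seen.

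**Figure D2:**
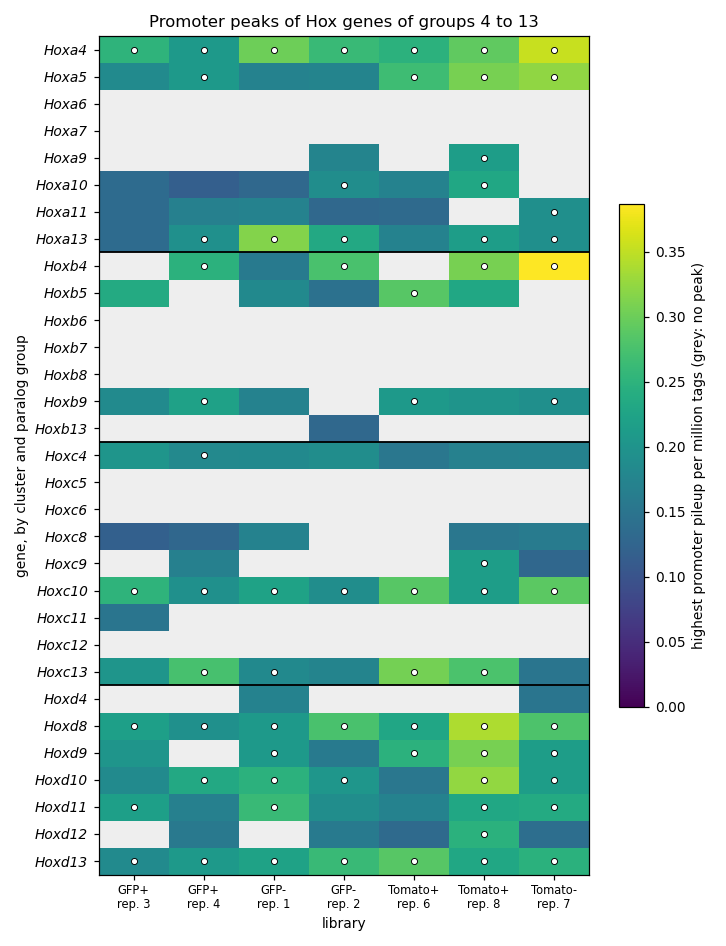
Promoter peaks of the 31 members (rows, by cluster and paralog group) in the 7 libraries (columns, by group). Colour gives the normalised summit pileup, grey marks no peak and a white dot marks a strong peak. The 8 fully grey rows include all of paralog groups 6 and 7.

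The peaks did not run evenly along the paralog groups. Groups 10 and 13 had the highest share of strong promoter peaks, in 66.7% and 57.1% of the pairs of a member and a library, followed by group 4 at 42.9%. Over all genes the share was 53.8% to 56.7% per library, so group 13 was near it and group 10, of 3 members, above it. Groups 6 and 7 had none in 21 and 14 pairs. Group 8 had 7 in 21, all at Hoxd8. The remaining groups lay between, at 32.1% for group 9, 23.8% for groups 5 and 11, and 7.14% for group 12. Among the 8 members of groups 6 to 8, which pattern the thoracic trunk, 6 had no promoter peak in any library. These absences depended on the window, which ends 100 bp downstream of the TSS. The nearest peak of any strength lay 116 bp from the TSS at Hoxb6 and 258 bp at Hoxb7. With 1000 bp on either side of the TSS, only Hoxb8 had no peak in any library.

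**Figure D3:**
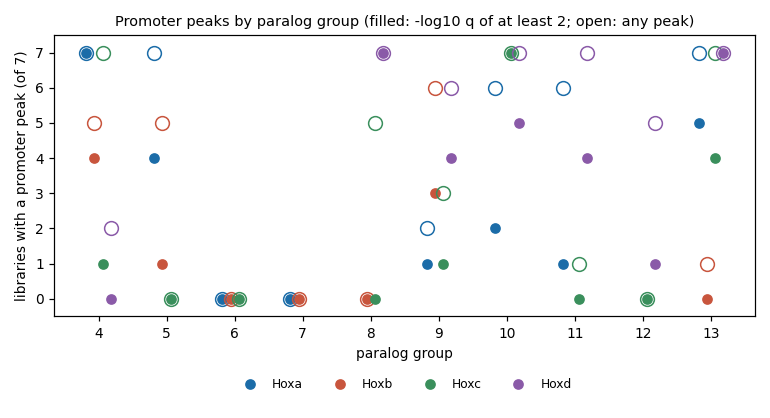
Number of libraries, of 7, in which each member had a promoter peak, by paralog group, in the window from 1000 bp upstream to 100 bp downstream of the TSS. Filled symbols count strong peaks and open symbols peaks of any strength, with no member of groups 6 and 7 above 0 and Hoxa4, Hoxc10, Hoxd8 and Hoxd13 at 7.

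Hoxa4 and Hoxb4, the group 4 genes with the highest summits, act in the hindbrain and upper trunk, and Hoxb4 is also known for its effect on blood stem cells. The Hoxa4 summit stood at 15 and 16 tags in GFP+ replicates 3 and 4, at 13 and 19 in Tomato+ replicates 6 and 8, at 23 and 18 in GFP- replicates 1 and 2, and at 33 in Tomato-. As a normalised pileup this was 0.252 and 0.208 in GFP+, 0.248 and 0.293 in Tomato+, 0.302 and 0.262 in GFP- and 0.355 in Tomato-. GFP+ was lowest and Tomato- highest, with GFP+ overlapping Tomato+. The Tomato- value came from a peak 193 bp downstream of the TSS, and those of the other libraries from an element upstream. In that upstream element Tomato- stood at 0.333, still the highest. In the downstream element Tomato+ replicate 8 also reached 0.355, outside the window. Hoxb4 had no promoter peak in GFP+ replicate 3 or Tomato+ replicate 6. It reached 19 tags in GFP+ replicate 4, 20 in Tomato+ replicate 8, 12 and 19 in GFP- and 36 in Tomato-. Within the window, the 2 libraries of each reporter-positive group therefore differed by presence or absence at Hoxb4, while each group held 1 library with a strong peak. Past the window's edge this difference was not seen. The Hoxb4 element 329 bp downstream of the TSS was strong in all 7 libraries, with 19 tags in GFP+ replicate 3 and 15 in Tomato+ replicate 6. The other group 4 genes were weaker, as Hoxc4 had a peak in all 7 libraries (8 to 16 tags) that was strong in 1, and Hoxd4 had a weak peak in 2.

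Group 5 differed in the same way by cluster. Hoxa5, a gene needed for the lung and the cervical skeleton, had a peak in all 7 libraries with a summit of 11 to 30 tags, strong in 4. Hoxb5 had a peak in 5 libraries, at 10 to 15 tags, strong in 1. Hoxc5 had none, although its nearest strong peak edge lay 171 to 13202 bp from the TSS with a median of 289 bp.

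Hoxd8 was the only open promoter among groups 6 to 8 that was strong in every library. Its summit was 13 and 15 tags in GFP+, 12 and 22 in Tomato+, 16 and 19 in GFP- and 26 in Tomato-. As a normalised pileup this was 0.219 and 0.195 in GFP+, 0.229 and 0.339 in Tomato+, 0.21 and 0.276 in GFP- and 0.279 in Tomato-. GFP+ was below Tomato+ and overlapped GFP-. Hoxc8, a thoracic patterning gene, had the lowest mean summit of the members with a peak in more than 1 library. Hoxc8 stood at −1.62 on a log2 scale centred per library, on which 0 is the library's own centre. Its summit was 7 and 10 tags in GFP+, 10 in Tomato+ replicate 8, 13 in GFP- replicate 1 and 15 in Tomato-, with no peak in Tomato+ replicate 6 or GFP- replicate 2. None of these was strong.

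Groups 9 and 10, which act in the lower thoracic and lumbar trunk and the proximal limb, were open mainly at Hoxc10, Hoxd9 and Hoxd10. The Hoxc10 summit was 15 tags in both GFP+ libraries, 15 and 14 in Tomato+, 17 and 13 in GFP- and 27 in Tomato-. GFP+, Tomato+ and GFP- overlapped at Hoxc10, and the higher Tomato- summit was a normalised pileup of 0.29, next to 0.287 in Tomato+ replicate 6. Outside the window, GFP- replicate 2 had a strong peak of 21 tags in the same Hoxc10 element, a normalised pileup of 0.305. Hoxd10 had a peak in all 7 libraries (8 to 21 tags), strong in 5. Hoxa9, a regulator of blood progenitors, had a peak in 2 libraries and Hoxc9 in 3, each strong in 1. Hoxa10, which acts in the lumbar skeleton and the uterus, had a peak in 6 libraries that was strong in 2.

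Hoxb9 was the most 5′ Hoxb gene with a strong promoter peak. Its summit was 11 and 17 tags in GFP+, 11 and 13 in Tomato+, 13 in GFP- replicate 1 and 18 in Tomato-, with no peak in GFP- replicate 2, and it was strong in GFP+ replicate 4, Tomato+ replicate 6 and Tomato-. Replicates of a group thus fell on both sides of the threshold in both reporter-positive groups. Hoxb13, the last gene of the cluster and a gene of the prostate and tail, had a single weak peak of 9 tags in GFP- replicate 2. Hoxc11 likewise had 1 weak peak, of 9 tags in GFP+ replicate 3.

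The group 13 genes Hoxa13 and Hoxd13, known for the digits and the genital tubercle, were open in cells taken from the heart region. The Hoxd13 summit was 11 and 16 tags in GFP+, 15 in both Tomato+ libraries, 17 and 18 in GFP- and 23 in Tomato-. The peak covered the TSS and was strong in all 7 libraries. As a normalised pileup it was 0.185 and 0.208 in GFP+, below the 0.287 and 0.231 of Tomato+, the 0.223 and 0.262 of GFP- and the 0.247 of Tomato-, and the other 3 groups overlapped. Hoxa13 had 8 and 15 tags in GFP+, 9 and 14 in Tomato+, 24 and 16 in GFP- and 18 in Tomato-. The promoter peak was strong in 5 libraries and missed the threshold in GFP+ replicate 3 and Tomato+ replicate 6. These had the fewest tags, and the part of depth was not tested. Past the window's edge, GFP+ replicate 3 had a strong peak of 15 tags and Tomato+ replicate 6 one of 12. The Hoxa13 element 701 bp downstream of the TSS was strong in all 7 libraries. Hoxc13, known for hair and nail formation, had 12 and 21 tags in GFP+, 16 and 18 in Tomato+, 14 and 12 in GFP- and 14 in Tomato-. It was strong in both Tomato+ libraries, in GFP+ replicate 4 and in GFP- replicate 1. Among the neighbouring groups, Hoxd11 had a peak in all 7 libraries (9 to 22 tags), strong in 4, and Hoxd12 in 5 libraries, strong in 1.

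The 8 members with no promoter peak had peaks elsewhere in the gene. Each had a strong peak overlapping its gene body in at least 1 library. This was 1 library for Hoxa6, Hoxc6 and Hoxc12, 2 for Hoxb6 and Hoxb7, 5 for Hoxa7 and Hoxb8, and 6 for Hoxc5. The Hoxa6 peak, in Tomato+ replicate 6, was also the Hoxa5 promoter peak of that library. At Hoxb8, the strong peaks of Tomato+ replicate 6 and Tomato- began 3388 and 3392 bp from the TSS, at the end of a gene body of 3421 bp. Across all 31 members, 30 had a strong gene body peak in at least 1 library, the exception being Hoxc8 (96.8%, against 77.7% of all genes). Hoxa4, Hoxa13, Hoxb4, Hoxc13, Hoxd8, Hoxd11 and Hoxd13 had one in all 7 (22.6%, against 53.9% of all genes). The median gene body was 3370 bp for the members and 13500 bp for all genes, which was not matched. The nearest strong peak edge was 775 to 3179 bp from the Hoxa7 TSS (median 792), 1140 to 5146 bp from that of Hoxb8 (median 2243) and 2664 to 4445 bp from that of Hoxa6 (median 3022). Medians were 1050 bp for Hoxb7, 4025 bp for Hoxb6, 4664 bp for Hoxc6 and 6420 bp for Hoxc12. With a window of 1000 bp on either side of the TSS, which was added after the data were seen, 7 members had a strong peak in all 7 libraries (22.6%, against 49.4% of all genes), Hoxa13, Hoxb4 and Hoxc13 joining the earlier 4, and only Hoxb8 had no peak in any.

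The clusters as a whole were more densely covered with strong peaks than the genome, although member promoters had strong peaks less often than the promoters of all genes. Over 770 bins of 500 bp spanning the members and 1000 bp on either side, 8.21 ± 1.93% (SD, n = 7 libraries) held a strong peak, against 1.93 ± 0.124% of the genome, a ratio of 4.25 ± 0.872 that was above 1 in 7 of 7 libraries. The genome share was not matched for gene density. The mean share was 12.9% in Hoxd, 10.6% in Hoxa, 6.48% in Hoxc and 6.1% in Hoxb. Local background was raised there too, with a median ratio of local to genome-wide background of 1.12 to 1.6 per library at cluster peaks and 1.0 to 1.08 at all peaks. No cluster peak exceeded 36 tags, and 5.53% to 11.5% of all peaks in a library were higher than its highest cluster peak.

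**Figure D4:**
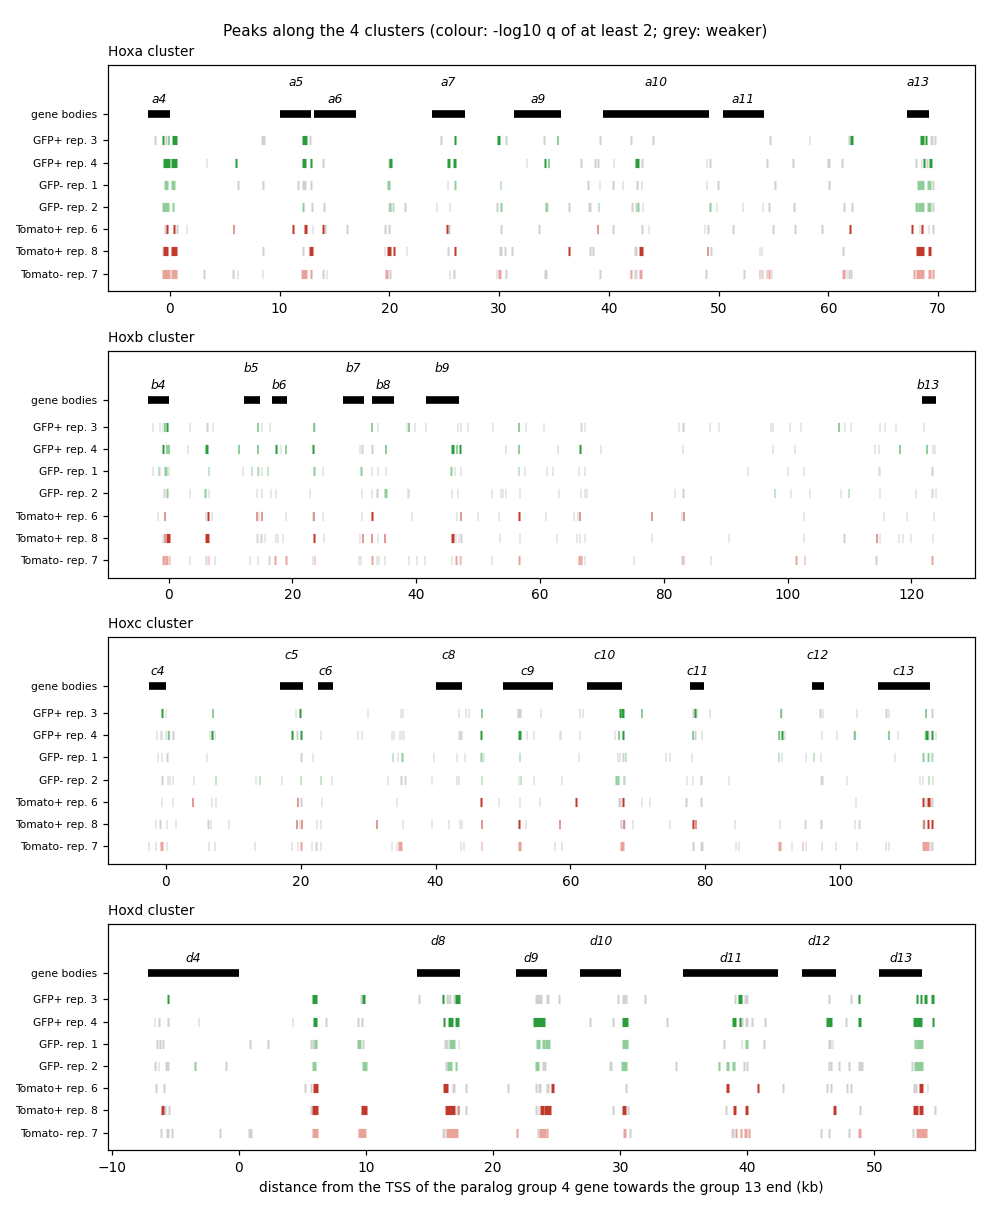
Peaks of the 7 libraries along the 4 clusters, by distance in kb from the TSS of the group 4 gene. Each mark is a peak, coloured by group where strong and grey where weaker, and the stretch between Hoxb9 and Hoxb13 is the widest with few strong peaks.

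Strong peaks reached the group 13 end of Hoxd in every library, of Hoxa in 5 libraries and of Hoxc in 4, as judged by promoters. Counted outside the promoter windows as well, the elements 701 bp downstream of the Hoxa13 TSS and 171 bp downstream of that of Hoxc13 were strong in all 7 libraries. The highest Hoxa promoter with a strong peak was Hoxa4 in GFP+ replicate 3 and Hoxa5 in Tomato+ replicate 6. In Hoxb, no promoter was strong in GFP+ replicate 3 or GFP- replicate 1, Hoxb4 was the highest in GFP- replicate 2 and Tomato+ replicate 8, and Hoxb9 was the highest in the other 3 libraries. The longest stretches with no strong peak in any library were 14584, 11139 and 9442 bp in Hoxb, all between Hoxb9 and Hoxb13. In Hoxc a stretch of 12047 bp held the Hoxc11 TSS and one of 11521 bp that of Hoxc8, and in Hoxd a stretch of 9089 bp held that of Hoxd4.

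Merging the strong peaks of all libraries gave 116 elements, 34 in Hoxa, 33 in Hoxb, 29 in Hoxc and 20 in Hoxd. Of these, 64 were strong in 1 library only and 9 in all 7. The summit lay in a member's promoter window in 20 elements, 100 to 2000 bp downstream of a member's TSS in 44, and elsewhere in 52. Most of the 9 shared elements sat at or just inside a gene, as 2 were near the Hoxa4 TSS (325 bp upstream and 193 bp downstream), 1 was 172 bp upstream of Hoxd8, and 4 lay in exons of Hoxa13, Hoxb4, Hoxc13 and Hoxd13 at 701, 329, 171 and 125 bp downstream of the TSS. The other 2 lay away from any member promoter.

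These 2 elements, strong in all 7 libraries away from member promoters, are shown with 1 more, upstream of Hoxa7. The Hoxa7 element was added for a match to the letters searched for CTCF, the insulator protein that partitions Hox clusters. The element 6046 bp upstream of Hoxd4 is given as 300 bases around its summit (chr2:74715783-74716082, plus strand). It lay in an exon of the noncoding gene Hoxd3os1, 198 bp from the TSS of that gene, and within the group 3 gene Hoxd3. The element 2944 bp upstream of Hoxc8 (chr15:102987514-102987757, plus strand) was intergenic. The element 3239 bp upstream of Hoxa7 is given on the gene's minus strand (chr6:52221663-52221962). Bases were read from GRCm38, and capitals mark CCANNAGNNGGC.
Hoxd4 -6046 bp element: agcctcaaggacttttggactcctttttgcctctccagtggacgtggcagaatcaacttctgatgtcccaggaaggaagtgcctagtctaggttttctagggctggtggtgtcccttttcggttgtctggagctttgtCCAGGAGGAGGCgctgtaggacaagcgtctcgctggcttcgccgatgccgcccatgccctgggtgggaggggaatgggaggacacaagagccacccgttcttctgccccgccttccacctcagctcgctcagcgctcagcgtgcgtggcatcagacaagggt
Hoxc8 -2944 bp element: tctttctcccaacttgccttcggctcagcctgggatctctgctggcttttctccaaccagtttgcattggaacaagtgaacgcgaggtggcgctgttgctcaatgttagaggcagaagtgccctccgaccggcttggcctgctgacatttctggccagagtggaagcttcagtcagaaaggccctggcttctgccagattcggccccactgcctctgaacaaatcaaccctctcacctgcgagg
Hoxa7 -3239 bp element: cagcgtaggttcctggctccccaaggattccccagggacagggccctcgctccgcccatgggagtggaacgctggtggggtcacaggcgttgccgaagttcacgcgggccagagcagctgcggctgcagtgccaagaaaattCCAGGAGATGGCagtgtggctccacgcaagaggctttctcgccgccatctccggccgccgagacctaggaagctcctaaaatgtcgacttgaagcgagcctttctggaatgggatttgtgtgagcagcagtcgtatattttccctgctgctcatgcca
The Hoxd4 element was the strongest of the 116 by mean −log10 q (6.92). Its summit was 12 and 23 tags in GFP+, 12 and 31 in Tomato+, 21 and 20 in GFP- and 27 in Tomato-, with each reporter-positive group holding a low and a high library. The Hoxc8 element varied less, at 19 and 14 tags in GFP+, 15 in both Tomato+ libraries, 15 and 16 in GFP- and 19 in Tomato-.

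Motif letters were counted on both strands as a description of these windows. CCANNAGNNGGC was in 6 of the 116 elements (5.17%), next to 4.95% to 5.56% of all strong peaks per library. TGACAG, searched for MEIS factors, was in 8 elements (6.9%, against 17.7% to 19.4%), and TGATNNAT in 3 (2.59%, against 8.02% to 9.5%). TTTATNG was in 13 (11.2%, against 6.95% to 7.66%). The direct repeat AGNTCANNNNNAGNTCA of retinoic acid receptors was in none, and in 0.0913% to 0.132% of all strong peaks. Of the 19 member promoters in the RefSeq table, TGATNNAT was in those of Hoxb8 and Hoxd11 (8.85% of all promoters held it) and TTTATNG in those of Hoxb8 and Hoxd4 (10.9% of all). None held TGACAG (19.2% of all), CCANNAGNNGGC (2.43%) or the direct repeat (0.204%).

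The comparison of GFP+ with Tomato+ cells asked where posterior and anterior second heart field progenitors differ in open chromatin. No member was called different between them in promoter signal. The summit pileups, centred per library on the log2 scale, were fitted with limma for the 13955 genes with a promoter peak in all 7 libraries, which included 10 members (Hoxa4, Hoxa5, Hoxa13, Hoxc4, Hoxc10, Hoxc13, Hoxd8, Hoxd10, Hoxd11 and Hoxd13). At an adjusted p below 0.05, 1 gene was higher in GFP+ (0.00717%) and 1 lower (0.00717%), and neither was a member. At an unadjusted p below 0.05 there were 1143 genes (8.19%) and 0 members. The member differences, GFP+ minus Tomato+, ran from −0.43 at Hoxa5 (SE 0.29, 95% interval −1.03 to 0.16, limma adjusted p = 0.727) to 0.37 at Hoxc4 (−0.23 to 0.97, adjusted p = 0.776). At Hoxa5 the value for Tomato+ replicate 6 came from a peak with its summit at −1031 bp from the TSS, and with a window of 500 bp on either side the difference was 0.18 (−0.39 to 0.74). The median over the 10 members was −0.13, with 7 negative and 3 positive, and that of all tested genes was 0.025. At Hoxc10 the interval ran from −0.65 to 0.55, so with 2 libraries a group, differences within these bounds remain compatible with the data. The labels name replicates by sequencing adapter and do not say whether they were separate pools of embryos, so p-values measure the spread between these libraries. Without Tomato+ replicate 8, 83 genes were called over all genes and 0 of the members.

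**Figure D5:**
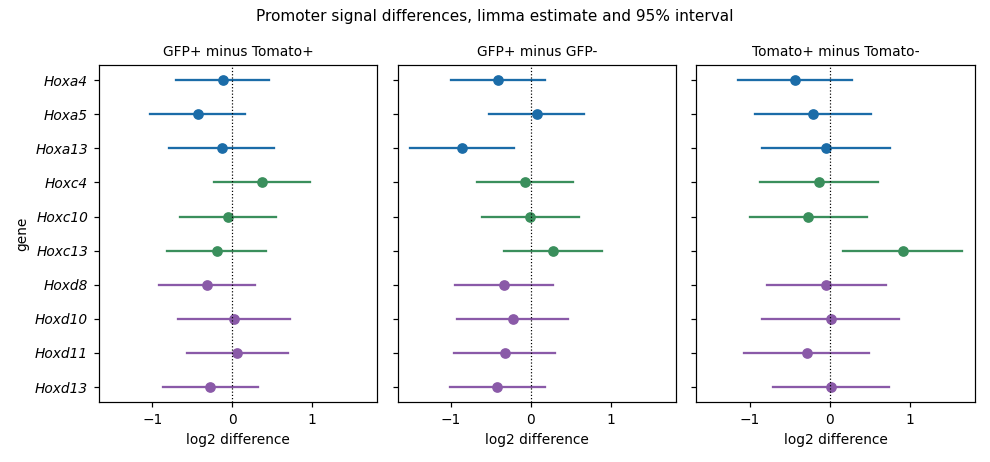
Differences in centred log2 promoter pileup for the 10 tested members in 3 contrasts, with 95% intervals from limma. All intervals include 0 except those of Hoxa13 in GFP+ minus GFP- and Hoxc13 in Tomato+ minus Tomato-, neither of which passed adjustment.

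GFP+ cells were compared with GFP- cells, and Tomato+ with Tomato- cells, to set each progenitor population against the reporter-negative cells of its region. The first shares the GFP+ libraries and the second the Tomato+ libraries with the comparison above. In GFP+ minus GFP-, 0% of the tested genes were higher and 1 (0.00717%) lower, with 637 (4.56%) at an unadjusted p below 0.05. No member was called. Hoxa13 was the 1 member at an unadjusted p below 0.05, with a difference of −0.86 (SE 0.32, 95% interval −1.51 to −0.21, limma adjusted p = 0.996). Its normalised pileup was 0.135 and 0.195 in GFP+ and 0.315 and 0.233 in GFP-, so the groups did not overlap. The Hoxa13 difference was −0.43 (95% interval −1.02 to 0.17) with a window of 500 bp on either side of the TSS, −0.52 without GFP+ replicate 3 and −0.57 without GFP- replicate 1. The median member difference was −0.28 against 0.005 for all tested genes.

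In Tomato+ minus Tomato-, where the single Tomato- library was taken to vary like the other groups, 0% of genes were called in either direction by limma and 652 (4.67%) had an unadjusted p below 0.05. No member was called. Hoxc13 was the 1 member at an unadjusted p below 0.05, with a difference of 0.91 (SE 0.36, 95% interval 0.16 to 1.66, limma adjusted p = 0.996). Its normalised pileup was 0.306 and 0.277 in Tomato+ and 0.15 in Tomato-, but the window caught the peak 171 bp downstream of the Hoxc13 TSS in Tomato+ replicate 6 and one upstream in Tomato-. With a window of 500 bp on either side of the TSS the difference was 0.21 (95% interval −0.5 to 0.92). The most negative difference was that of Hoxa4 at −0.44, where the Tomato- value came from the peak 193 bp downstream of the TSS and the Tomato+ values from upstream. The median over members was −0.09 against 0.006 for all tested genes.

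Presence and absence of a strong peak separated few members. A promoter was called when all libraries of one group had a strong peak and no library of the other did. For GFP+ and not Tomato+ this held for 0 members (0.672% of all genes), and for Tomato+ and not GFP+ for Hoxd9 alone (0.447%). Hoxd9, a gene of the lumbar trunk and limb, had a summit of 13 and 20 tags in Tomato+ (−log10 q 3.32 and 5.07), 12 tags in GFP+ replicate 3 (1.7) and no peak in GFP+ replicate 4, but it was also strong in GFP- replicate 1 at 16 tags (2.88) and in Tomato- at 20 (2.71), and reached 11 tags in GFP- replicate 2. In GFP+ replicate 4 a strong peak of 17 tags (4.17) in the same Hoxd9 element lay outside the window, and with 500 or 1000 bp on either side of the TSS Hoxd9 was not called and the 1 call was Hoxc4, in GFP+ and not Tomato+. Without Tomato+ replicate 6, Tomato+ and not GFP+ held at 5 members (Hoxa9, Hoxa10, Hoxc9, Hoxd9 and Hoxd12) and 1.8% of all genes, and with peaks of any strength at 0 members and 0.837% of all genes. An exact permutation test of 2 libraries against 2 cannot give a two-sided p below 0.333. A bin of 500 bp was called when both libraries of one group had a strong peak and neither library of the other had a peak of any strength. Of the cluster bins, 0 were called for GFP+ and not Tomato+ (0.704% of tested bins) and 1 for Tomato+ and not GFP+ (0.569%), which starts at position 74697001 of chromosome 2 and lies in the same Hoxd9 promoter.

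For GFP+ and not GFP- (0.81% of all genes) and for GFP- and not GFP+ (0.416%), 0 members were called. For Tomato+ and not Tomato- (0.905%) the 1 member was Hoxc13, whose highest Tomato- peak in the window, of 14 tags, had a −log10 q of 1.31. A strong Tomato- peak of 23 tags (5.92) lay in the Hoxc13 element 171 bp downstream of the TSS, past the window's edge, and Hoxc13 was not called with windows of 500 or 1000 bp on either side of the TSS. For Tomato- and not Tomato+ (2.54%), which rests on a single library, it was Hoxa11, a gene of the forearm and uterus. Hoxa11 had 18 tags in Tomato- (2.95), 7 in Tomato+ replicate 6, none in Tomato+ replicate 8, 8 and 13 in GFP+ and 13 and 9 in GFP-. Replicates of a group disagreed on the strong call at 5 members in GFP-, 8 in GFP+ and 10 in Tomato+, while pairs of libraries from different groups disagreed at 4 to 10 (median 6).

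Other genes of the same loci and pathway gave a scale for these values. Of the 8 Hox genes of groups 1 to 3, 4 had a promoter peak in all 7 libraries and 2 a strong one. Summits at Hoxd1 were 12 to 35 tags, while Hoxb3 had no peak. The median normalised pileup of groups 1 to 3 equalled that of the members in GFP+ replicate 4 (0.195) and Tomato+ replicate 6 (0.22). It was above that of the members in the other libraries. Of 9 genes flanking the clusters, 6 had a peak in all 7, among them Calcoco1 (36 to 102 tags) and Lnpk (33 to 78), and the homeobox genes Evx1 and Evx2 at the 5′ ends of Hoxa and Hoxd had none. All 9 genes of the TALE cofactors, the PBX, MEIS and PREP proteins that bind DNA with HOX proteins, had a peak in all 7 libraries, 8 of them strong in all. None of the 3 Cdx genes, trunk regulators of Hox expression, had a peak in all 7. Of 8 noncoding genes within the clusters 2 did. Of these lists, limma tested the genes with a peak in all 7 libraries (4 of groups 1 to 3, 6 flanking, 9 cofactor, 2 noncoding and no Cdx genes) and called 0 in any of the 3 contrasts. At an unadjusted p below 0.05 there were 1 flanking, 1 noncoding and 1 gene of groups 1 to 3 in GFP+ minus Tomato+, 2 flanking, 1 cofactor and 1 gene of groups 1 to 3 in GFP+ minus GFP-, and 2 flanking genes in Tomato+ minus Tomato-.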

How the data were processed

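ATAC-seq peak lists of 7 libraries (GFP+, Tomato+ and GFP- with 2 each, Tomato- with 1) were analysed. Per the labels and methods, the authors aligned reads to GRCm38 (mm10) with SNAP, removed duplicates and blacklisted reads, and called peaks per library with MACS2 2.1.1. The deposited header of Tomato+ replicate 6 names version 2.1.0.20150731, no control, a p of 0.01, a shift of 37 bp and an extension of 73 bp. That shift can move summits. The deposited columns hold the pileup (signal), the fold enrichment (ratio) and −log10 p and −log10 q values. Depth was not given in the other lists and was estimated from their lowest local background.

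Rows with several summits were collapsed to the summit of smallest p. A gene took the highest pileup among peaks overlapping, by at least 1 bp, a window from 1000 bp upstream to 100 bp downstream of a curated RefSeq TSS. Log2 pileups were centred per library on genes with a peak in all 7 libraries and fitted by limma 3.58.1 in R 4.3.3 over all 4 groups with a trended variance and Benjamini-Hochberg adjustment. The fit was tested on simulated data. Named genes were members with an adjusted p below 0.05, members called by presence, the 3 highest and 3 lowest means, and the most posterior open gene of each cluster. Normalised pileups were divided by the estimated tags. Alternatives changed the threshold, window, scaling, treatment of absent peaks and libraries. This gene group, defined by symbol, and the other lists were picked with earlier results of these data known.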

Additional observations from a re-analysis of the deposited data

How the results depend on the processing

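None of the members was called by limma in any contrast under any alternative, and their median difference moved by less than the median SE of a member (0.29, 0.29 and 0.36 by contrast) in all of them, with leave-one-out ranges of −0.26 to 0.01 (GFP+ minus Tomato+), −0.3 to −0.02 (GFP+ minus GFP-) and −0.29 to −0.04 (Tomato+ minus Tomato-). The last, −0.09, turned to 0.1 with fold enrichment and 0.01 with absent peaks set to the smallest pileup. Counts over all genes did move. For GFP+ minus Tomato+, 2 genes were called, and 0 with fold enrichment in place of pileup, 0 with absent peaks set to the smallest pileup and 0 among genes with a strong peak in all 7 libraries. Leaving out 1 library gave 0 to 83, the highest without Tomato+ replicate 8. For GFP+ minus GFP-, 1 gene was called, and 0 after quantile normalization, 0 among genes with a strong peak in all 7 libraries, 2 with a window of 500 bp on either side of the TSS and 0 to 1 when 1 library was left out. For Tomato+ minus Tomato-, 0 genes were called, and 1 with the 500 bp window and 0 to 1 when 1 library was left out. Without Tomato- replicate 7 that contrast had no value.

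Presence calls between GFP+ and Tomato+ (1 member) fell to 0 with peaks of any strength and to 0 at a −log10 q of at least 4, and ranged from 2 to 5 when 1 library of either group was left out, the highest without Tomato+ replicate 6. The share of all genes called Tomato+ and not GFP+ rose alongside, from 0.447% to between 1.1% and 1.94%, and that called GFP+ and not Tomato+ from 0.672% to between 1.78% and 2.66%. Between GFP+ and GFP- (0 members) they were 1 at a −log10 q of at least 4, 1 with the summit inside the window, 2 with the 500 bp window, 1 with 1000 bp on either side and 1 to 3 when 1 library was left out, with 0.424% to 2.7% of all genes called in a direction. Between Tomato+ and Tomato- (2 members) they were 4 with 1000 bp on either side, and 7 without either Tomato+ library, where the share of all genes rose from 0.905% to 2.46% and 2.81% (Tomato+ and not Tomato-) and from 2.54% to 4.35% and 5.49% (Tomato- and not Tomato+). The 4 members with a strong peak in every library became 10 with peaks of any strength (53.3% of all genes), 0 at a −log10 q of at least 4 (38.1%), 2 with the summit inside the window (31.2%) and 7 with 1000 bp on either side (49.4%), a window added after the data were seen. The share of cluster bins was 20% with peaks of any strength, 2.71% at a −log10 q of at least 4 and 2.08% when a peak had to cover 250 bp, and the ratio to the genome was 2.43 at a −log10 q of at least 4, down to 0.981 in the lowest library. The cause of these shifts was not tested. Of 148 values under 17 settings, 103 kept a count within 1.5 times of the reported one, a median within that SE or a share within 1 SD over libraries.

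Many summits were of few tags and near the threshold, and at Hoxd9 and Hoxc13 a call turned on whether a peak fell inside the window. The same held for a strong peak at Hoxb4 and Hoxa13 in GFP+ replicate 3 and Tomato+ replicate 6. A peak list holds no value where no peak was called. No paired analysis was possible because the replicate numbers are sequencing adapters, which differ in every library, and the labels do not tie libraries of different groups to the same dissection.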
